A study of Homo sapiens with 6 samples.

Results

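Nucleolar genes of ribosomal RNA processing and ribosome assembly were described in HEK293T cells with and without PRMT1 overexpression. The members were 53 genes listed by name, with no measured value in the rule, from the snoRNPs, the small subunit processome, the late 40S and 60S particles and the nucleolar phosphoproteins. All 53 were found among the 57500 Ensembl gene identifiers of the expression table by their current symbols, and all 53 passed the filter on low values, as did 15341 genes in all. For comparison by assembly step, each member was placed in 1 of 9 steps from general knowledge. Members and steps were chosen with earlier results of these data known, so the list is not blind to them.

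HEK293T is a human embryonic kidney line that carries the SV40 large T antigen and is widely used for plasmid transfection. The PRMT1-OV group comprised 3 libraries from cells labelled PRMT1 OV by genotype, transfected through PolyJet with PCDNA3 that held a PRMT1 insert. The Mock group comprised 3 libraries from cells labelled WT by genotype and Vector Control by treatment. PRMT1 is the main enzyme of asymmetric arginine dimethylation, and the comparison asked which transcripts differed between the overexpressing and the control cells. The labels do not say whether Mock cells received an empty plasmid, nor that replicates came from separate cultures, so p-values speak only to variation among these 6 libraries, which could be technical.

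Ribosomes are built in the nucleolus, where RNA polymerase I makes a long precursor RNA that is modified, folded and cut while assembly factors bind it. Box C/D snoRNPs guide 2′-O-methylation and box H/ACA snoRNPs guide pseudouridylation. The small subunit processome, with the U3 snoRNP and the UTP-A and UTP-B subcomplexes, forms on the start of the precursor and yields the 40S particle, and separate factors mature the 60S particle. Fibrillarin, nucleolin and GAR1 carry glycine- and arginine-rich stretches of the kind that PRMT1 methylates. Protein methylation, ribosomal RNA and ribosomes themselves were not measured here.

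PRMT1 reached 71656, 62895 and 84923 TPM in the PRMT1-OV libraries, against 378, 397 and 368 TPM in the Mock libraries. TPM is a transcript level corrected for length and scaled to a total of 1000000 in each library. The level of PRMT1 matched the labels in all 6 libraries. Libraries held 19909966 to 23201485 recovered reads in PRMT1-OV and 18238196 to 20468446 in Mock, and the fewest reads of a member in a library were 55. The epithelial markers KRT8, KRT18, EPCAM and CDH1 summed to 163 to 180 TPM in PRMT1-OV and 167 to 191 TPM in Mock, and the kidney development markers PAX2, PAX8, LHX1 and WT1 summed to 8.70 to 10.3 TPM in PRMT1-OV and 6.88 to 8.14 TPM in Mock. Within that list, WT1 stood at 3.27, 4.00 and 3.32 TPM in PRMT1-OV, against 1.16, 1.43 and 1.54 TPM in Mock, and PAX8 at 0 to 0.068 TPM in the 6 libraries. The blood and endothelium markers PTPRC, PECAM1, VWF and CDH5 stood at 0 to 0.113 TPM in PRMT1-OV and 0 to 0.0572 TPM in Mock, and CD3E was at 0 in all 6 libraries. Fibroblast markers summed to 9.34 to 10.8 TPM in PRMT1-OV and 12.3 to 17.1 TPM in Mock, nearly all COL1A1. PRMT1-OV replicate 2 and Mock replicate 3 lay farthest out in their groups along the first principal component. In bulk RNA, fewer cells of a type and less RNA per cell cannot be told apart.

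Of the 53 members, 39 were higher in PRMT1-OV and 6 were lower at an adjusted p under 0.05, and 8 did not pass. Among all tested genes, 40.3% were called higher and 8.64% lower, so the members' share of higher calls, 73.6%, stood above a background that itself was shifted upward. These shares are also the background for the counts of each step below. The test was limma on log2(TPM + 1) with Benjamini-Hochberg adjustment over all 15341 genes, which is the test behind every adjusted p given for single genes. On that scale the change of a weakly expressed gene is understated. The median log2 fold change was 0.51 for the members and 0.30 for all tested genes, a difference of 0.21. At least 2-fold higher and called were 13 members, against 9.96% of all tested genes. In 40 members all 3 PRMT1-OV libraries lay above all 3 Mock libraries, in 8 they lay below, and in 5 the groups overlapped, where 49.8% and 11.6% of all tested genes lay apart upward and downward.

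Because the median of all genes was shifted, the split was also computed after median-of-ratios scaling of the libraries, which brought that median to 0.01. Then 21 members were higher and 12 lower, against 23.5% and 24.1% of all tested genes, and the members' median log2 fold change was 0.16. For the counts of each step after scaling, these shares are the background. After quantile normalization 29 were higher and 1 lower, against 20.3% and 19.4% of all tested genes, and with PRMT1 taken out and the other genes rescaled 41 were higher and 3 lower, against 49.1% and 5.68%. The 21 members that were called higher in the fit on TPM and in all 17 alternative fits were NOP56, NOP58, UTP4, UTP15, NOL11, WDR43, WDR75, WDR3, WDR36, UTP3, UTP14A, UTP23, NOL6, NOL10, LTV1, PNO1, RRP12, NOP2, RRP1, RRP1B and RRS1, with log2 fold changes of 0.65 to 1.98 in the fit on TPM. TCOF1 was the 1 member called lower in all of them. The share of all tested genes called in every fit was not computed, so no background stands beside the 21 or their split by step. For higher calls it can be at most 20.3%, the share after quantile normalization. By assembly step, 5 of 6 UTP-A members, 2 of 3 box C/D members, 3 of 6 late 40S members, 4 of 9 60S members, 4 of 9 other processome factors, 2 of 6 UTP-B members and 1 of 5 members of the U3 and MPP10 module were among the 21, and no box H/ACA member was.

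**Figure D1:**
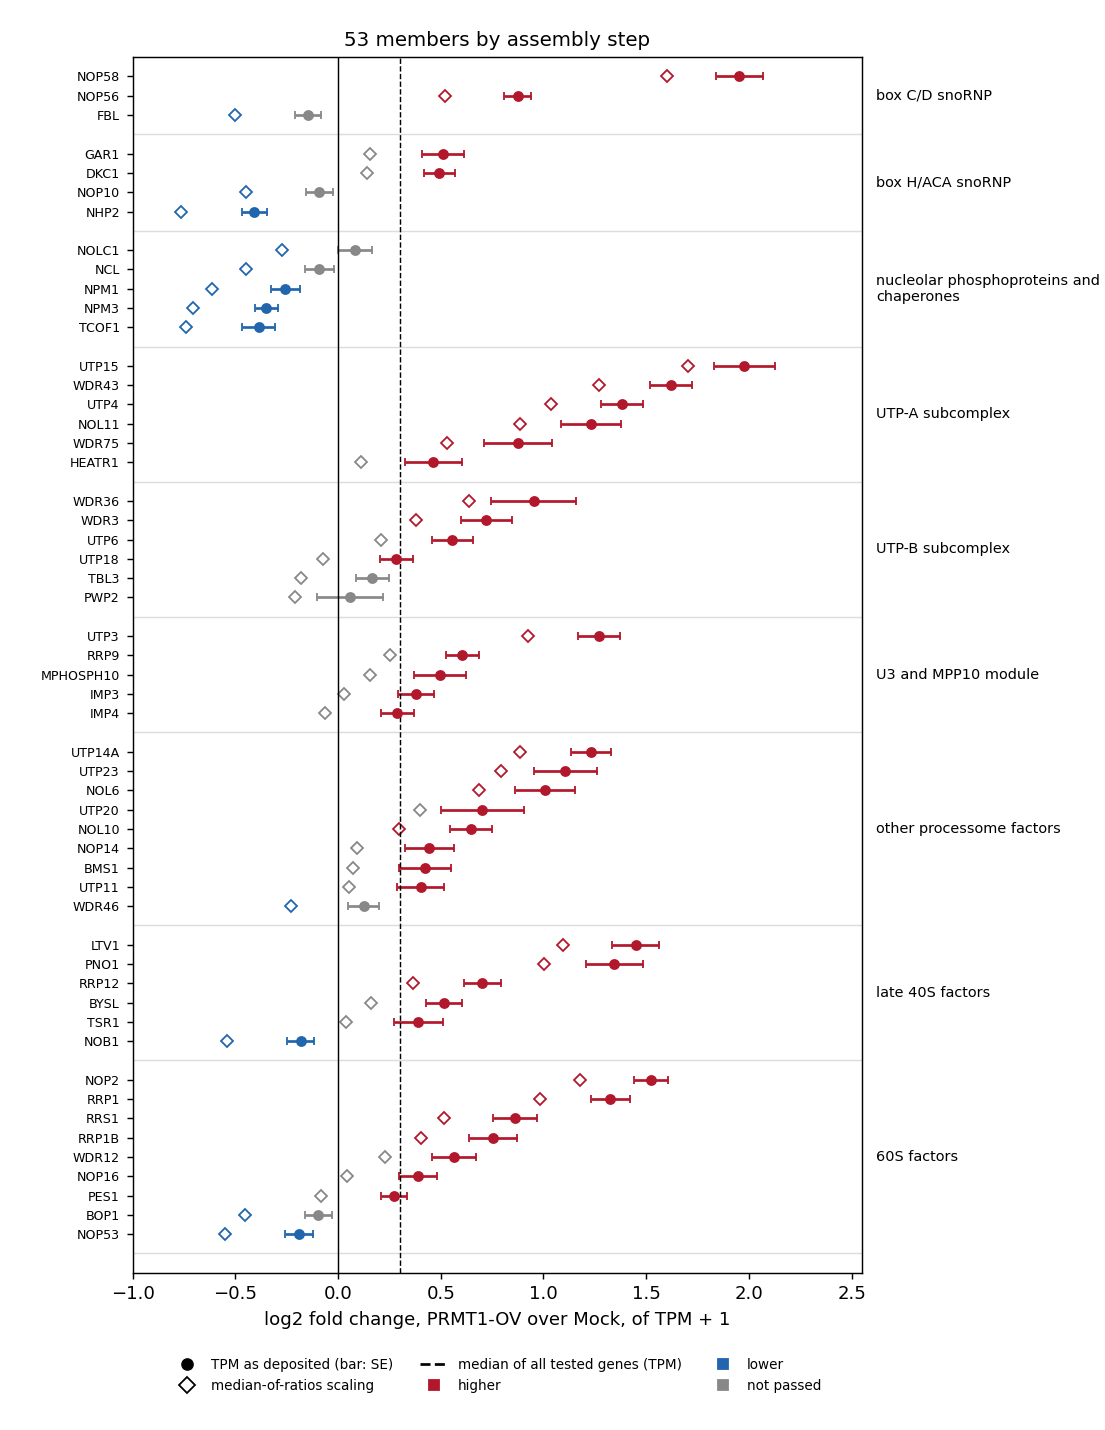
Log2 fold change of TPM + 1 in PRMT1-OV over Mock for the 53 members, grouped by assembly step. Filled circles with SE bars are the fit on TPM, open diamonds the fit after median-of-ratios scaling, colours give the call at an adjusted p under 0.05 in that fit, and the dashed line is the median of all tested genes at 0.30. The 6 UTP-A genes all lie above that line, and the 5 nucleolar phosphoproteins and chaperones all lie below it.

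To show the upstream sequence of members, the 250 bases before the annotated start were read from RefSeq promoters (GRCh38.p14), which matched 43 of the 53 members. NOP58, NOLC1, TCOF1, MPHOSPH10, UTP23, NOL10, RRP12, BOP1, RRP1B and RRS1 were not matched. Only 5 of the 43 windows shared no base with a GENCODE 29 exon, and 3 of these are printed here, from a late 40S factor and a processome factor that were higher and a chaperone that was lower. The other windows of this kind, of the processome genes HEATR1 and BMS1, which were also higher, held none of the motifs, so the 3 printed do not show how motifs and direction go together. Capitals mark a motif match, an ETS site on the opposite strand for LTV1 and an E-box of the kind that MYC binds for UTP20, and NPM3 held none of the 4 motifs searched. The windows are LTV1 at chr6:143843088-143843337 on the plus strand, UTP20 at chr12:101279855-101280104 on the plus strand and NPM3 at chr10:101783447-101783696 on the minus strand.
LTV1: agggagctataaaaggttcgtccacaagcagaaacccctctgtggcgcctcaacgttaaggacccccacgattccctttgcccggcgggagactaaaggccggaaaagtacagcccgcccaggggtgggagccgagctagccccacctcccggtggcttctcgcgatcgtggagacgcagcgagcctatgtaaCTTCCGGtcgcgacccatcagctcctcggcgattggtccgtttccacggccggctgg
UTP20: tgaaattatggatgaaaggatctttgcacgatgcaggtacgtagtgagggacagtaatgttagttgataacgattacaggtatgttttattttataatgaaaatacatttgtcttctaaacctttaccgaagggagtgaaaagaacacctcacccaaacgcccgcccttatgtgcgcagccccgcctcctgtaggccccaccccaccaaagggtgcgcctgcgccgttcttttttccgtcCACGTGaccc
NPM3: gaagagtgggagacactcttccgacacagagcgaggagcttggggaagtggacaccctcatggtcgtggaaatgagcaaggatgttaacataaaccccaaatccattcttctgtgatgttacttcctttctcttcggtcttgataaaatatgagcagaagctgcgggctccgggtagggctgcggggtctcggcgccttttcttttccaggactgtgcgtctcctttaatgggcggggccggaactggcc

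Both strands of the windows were searched for CACGTG, the MYC E-box, CCGGAAG, an ETS site, AAGATGGC, a YY1 site, and TGCGCATG, an NRF1 half-site. None of the 4 contains another. The E-box stood in 6 of 43 member windows (14.0%) and in 9.07% of the 10624 windows of tested genes, and the ETS site in 14 (32.6%) and 16.1%. The YY1 site stood in 4 member windows (9.30%) and in 1.93% of the windows of tested genes, and the NRF1 half-site in 3 (6.98%) and 3.02%. Of the 32 matched members that were higher, 5 held the E-box, 10 the ETS site, 1 the YY1 site and 2 the NRF1 half-site. Of the 11 other matched members, 1 held the E-box, 4 the ETS site, 3 the YY1 site and 1 the NRF1 half-site. A match is a match of letters, and binding was not measured.

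Among the 3 members that are core proteins of box C/D snoRNPs, the scaffold proteins NOP58 and NOP56 were higher in PRMT1-OV, and the methyltransferase fibrillarin (FBL) was not. The median log2 fold change was 0.87, and after scaling the same 2 were higher and FBL was lower. SNU13, a further core protein that is not a member, did not pass (log2 fold change -0.16, limma adjusted p = 0.125). After scaling SNU13 was lower at -0.52 (limma adjusted p = 0.0126), and it is counted below with the snoRNP assembly factors. NOP58 (chr2:202265716-202303666, GRCh38, as are all gene positions given) had 140.4, 174 and 136 TPM in PRMT1-OV, against 34.8, 37.0 and 41.7 TPM in Mock. Each PRMT1-OV library was above every Mock library, the ratio of means was 3.96, and the log2 fold change was 1.95 (standard error 0.12, adjusted p = 6.99e-05 by limma). NOP56 (chr20:2652145-2658393) had 105, 112 and 107 TPM in PRMT1-OV, against 58.3, 58.3 and 59.3 TPM in Mock. Both groups were tight and did not overlap, with a log2 fold change of 0.87 (standard error 0.07, adjusted p = 0.000122 by limma). FBL (chr19:39834458-39846414) had 1228, 1196 and 1280.0 TPM in PRMT1-OV, against 1320.1, 1461 and 1319 TPM in Mock. The groups lay apart, PRMT1-OV below, with a log2 fold change of -0.15 (standard error 0.06, adjusted p = 0.0906 by limma) on TPM and -0.50 after scaling (limma adjusted p = 0.00514). After quantile normalization it was 0.14 (limma adjusted p = 0.118), and with PRMT1 taken out it was -0.04 (limma adjusted p = 0.665).

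Box H/ACA genes split by level, the abundant NHP2 being lower in PRMT1-OV and the less abundant DKC1 and GAR1 higher. Dyskerin (DKC1), the pseudouridine synthase of the particle, had 128, 144 and 129.9 TPM in PRMT1-OV, against 96.7, 98.1 and 90.1 TPM in Mock. The gene lies at chrX:154762742-154777689. Its groups did not overlap, and its log2 fold change was 0.49 (standard error 0.08, adjusted p = 0.00169 by limma). NHP2 (chr5:178149460-178153967), an RNA-binding core protein, had 765, 680.0 and 739 TPM in PRMT1-OV, against 956, 960.3 and 979.8 TPM in Mock. All PRMT1-OV libraries lay below all Mock libraries, with a log2 fold change of -0.41 (standard error 0.06, adjusted p = 0.00158 by limma), or -0.13 after quantile normalization (limma adjusted p = 0.181). NHP2 shares 414 exonic bases with RMND5B on the other strand, which averaged 21.9 ± 0.85 TPM in PRMT1-OV and 12.1 ± 0.48 TPM in Mock, and the effect of shared reads was not tested. GAR1 averaged 68.0 ± 1.51 TPM in PRMT1-OV and 47.7 ± 6.47 TPM in Mock (SD, n = 3 each), a called rise, and NOP10 averaged 315 ± 14.1 TPM in PRMT1-OV and 335 ± 17.3 TPM in Mock, which did not pass. The step's median log2 fold change was 0.20 on TPM but -0.15 after scaling, where DKC1 (limma adjusted p = 0.112) and GAR1 (limma adjusted p = 0.382) were no longer called and NHP2 and NOP10 were lower.

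The nucleolar phosphoproteins and chaperones were the step with no higher member. NPM1, NPM3 and TCOF1 were lower, NCL and NOLC1 did not pass, and the median log2 fold change was -0.26, or 0.0059 after quantile normalization. Among all tested genes 8.64% were lower. All of the step but TCOF1 averaged over 100 TPM, and in the range from 100 TPM lower calls were common. There 491 of 1384 tested genes were lower and 13.7% were higher, so the step is not set apart from its level. Nucleophosmin (NPM1, chr5:171387116-171411137), a histone and ribosome chaperone and the most abundant member, had 2654, 3002 and 2587 TPM in PRMT1-OV, against 3255, 3142 and 3438 TPM in Mock. The groups did not overlap, PRMT1-OV replicate 2 stood nearest to Mock, and the log2 fold change was -0.26 (standard error 0.07, adjusted p = 0.0202 by limma). Its relative NPM3 (chr10:101781325-101783413), the gene of the printed promoter without a motif match, had 496, 505 and 469 TPM in PRMT1-OV, against 629, 611 and 633 TPM in Mock. These also lay apart, with a log2 fold change of -0.35 (standard error 0.06, adjusted p = 0.00217 by limma), or -0.10 after quantile normalization (limma adjusted p = 0.159). Treacle (TCOF1, chr5:150357629-150400308), a cofactor of RNA polymerase I whose gene is mutated in Treacher Collins syndrome, had 61.1, 63.3 and 57.7 TPM in PRMT1-OV, against 78.2, 74.8 and 86.3 TPM in Mock. It was lower in every PRMT1-OV library, with a log2 fold change of -0.39 (standard error 0.08, adjusted p = 0.00638 by limma). Nucleolin (NCL), which binds the precursor RNA, averaged 587 ± 49.7 TPM in PRMT1-OV and 623 ± 5.41 TPM in Mock (SD, n = 3 each), with overlapping groups. NOLC1, a snoRNP chaperone, averaged 232 ± 16.9 TPM in PRMT1-OV and 219 ± 16.1 TPM in Mock.

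After median-of-ratios scaling all 5 of these genes were lower, NOLC1 by a log2 fold change of -0.27 (limma adjusted p = 0.0132) against 0.08 on TPM. The NPM1 call was lost without PRMT1-OV replicate 1, PRMT1-OV replicate 3 or Mock replicate 1 (limma adjusted p = 0.0768, 0.0688 and 0.0557), and NCL was called lower without PRMT1-OV replicate 2 (limma adjusted p = 0.0429). With PRMT1 taken out the NPM1 log2 fold change was -0.15 (limma adjusted p = 0.103), and after quantile normalization it was 0.0059 (limma adjusted p = 0.963). NPM1 has many processed pseudogenes whose reads may be split with it, and the best covered, NPM1P27, had 85.9, 98.1 and 84.1 TPM in PRMT1-OV, against 124, 118 and 129 TPM in Mock.

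UTP-A, the subcomplex that binds the 5′ end of the precursor and is tied to its transcription, had all 6 members higher in PRMT1-OV. The median log2 fold change of 1.31 was 1.00 above that of all tested genes, of which 40.3% were higher. After scaling 5 of the 6 stayed called, HEATR1 being the exception, where 23.5% of all tested genes were higher. WDR43 (chr2:28894643-28948222), a WD-repeat scaffold, had 77.7, 96.7 and 77.4 TPM in PRMT1-OV, against 26.0, 26.4 and 26.9 TPM in Mock. PRMT1-OV replicate 2 was highest, no values overlapped, and the log2 fold change was 1.62 (standard error 0.10, adjusted p = 7.27e-05 by limma). UTP4 (chr16:69131291-69231130), whose product is also known as cirhin, had 54.9, 62.9 and 55.8 TPM in PRMT1-OV, against 23.1, 22.6 and 19.1 TPM in Mock. The groups lay far apart, with a ratio of means of 2.68 and a log2 fold change of 1.38 (standard error 0.10, adjusted p = 0.000121 by limma). UTP15 (chr5:73565443-73583377), singled out after its values were seen because its fold change was the largest among members, had 8.11, 10.7 and 9.18 TPM in PRMT1-OV, against 1.44, 1.94 and 1.48 TPM in Mock. These rested on 331 to 438 reads in PRMT1-OV and 55 to 73 in Mock, and the log2 fold change was 1.98 (standard error 0.15, adjusted p = 0.000122 by limma).

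Of the other UTP-A genes, NOL11 averaged 59.5 ± 9.89 TPM in PRMT1-OV and 24.7 ± 3.53 TPM in Mock, WDR75 averaged 35.1 ± 8.43 TPM in PRMT1-OV and 18.4 ± 2.01 TPM in Mock, and HEATR1 averaged 54.5 ± 7.75 TPM in PRMT1-OV and 39.3 ± 5.71 TPM in Mock (SD, n = 3 each). The 3 were called higher, but the HEATR1 call was lost without PRMT1-OV replicate 2 or Mock replicate 3 (limma adjusted p = 0.0721 and 0.0554). The strand setting of the counting is not given in the sources used here, so where exons of opposite strands overlap, their reads cannot be told apart. UTP4 shares 70 exonic bases with CHTF8 on the other strand, which averaged 63.8 ± 3.23 TPM in PRMT1-OV and 19.1 ± 4.40 TPM in Mock, and UTP15 shares 244 with ANKRA2, at 9.19 ± 0.90 TPM in PRMT1-OV and 6.18 ± 0.76 TPM in Mock. Their part in the results was not tested. In all, 15 members share exonic bases with a protein-coding gene on the opposite strand.

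UTP-B, the second large WD-repeat subcomplex, had 4 of 6 members higher in the limma fit, none lower and a median log2 fold change of 0.42, or 0.07 after scaling, where WDR3 and WDR36 stayed called. The share of all tested genes called higher was 40.3% on TPM and 23.5% after scaling. WDR3 (chr1:117929720-117966542) had 31.4, 35.2 and 27.3 TPM in PRMT1-OV, against 20.2, 19.2 and 16.3 TPM in Mock. Its groups did not overlap, and its log2 fold change was 0.72 (standard error 0.12, adjusted p = 0.00263 by limma). UTP6 (chr17:31860899-31901765) had 34.5, 38.5 and 30.7 TPM in PRMT1-OV, against 23.9, 23.2 and 22.2 TPM in Mock. Mock was tight and lay below every PRMT1-OV library, with a log2 fold change of 0.56 (standard error 0.10, adjusted p = 0.00336 by limma). UTP18 (chr17:51260528-51297936), the most abundant member of the subcomplex, had 129, 140.5 and 123 TPM in PRMT1-OV, against 109, 112 and 100.0 TPM in Mock. The groups lay apart by a small margin, with a log2 fold change of 0.28 (standard error 0.08, adjusted p = 0.0214 by limma) that was 0.02 below the median of all genes and turned to -0.07 after scaling and -0.09 after GC correction (limma adjusted p = 0.39 and 0.169). The UTP18 call was also lost without PRMT1-OV replicate 1, PRMT1-OV replicate 2 or Mock replicate 1 (limma adjusted p = 0.0622, 0.051 and 0.0557).

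WDR36, a propeller protein of UTP-B, averaged 11.4 ± 3.16 TPM in PRMT1-OV and 5.36 ± 1.19 TPM in Mock (SD, n = 3 each). The spread in PRMT1-OV came with 15.1 TPM in replicate 2 against 9.51 and 9.64 TPM in the others. Neither PWP2, the yeast relative of which belongs to the core of the subcomplex, nor TBL3 passed. PWP2 averaged 3.03 ± 0.66 TPM in PRMT1-OV and 2.84 ± 0.21 TPM in Mock, and TBL3 averaged 37.5 ± 1.18 TPM in PRMT1-OV and 33.3 ± 1.70 TPM in Mock.

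The U3 and MPP10 module had 5 of 5 members higher, with a median log2 fold change of 0.50, and after scaling UTP3 alone stayed called. Of all tested genes 40.3% were higher on TPM and 23.5% after scaling, where the module's share was near that background. UTP3 (chr4:70688479-70690551), the relative of yeast Sas10 in the MPP10 complex, had 43.3, 51.1 and 48.6 TPM in PRMT1-OV, against 17.2, 19.7 and 20.6 TPM in Mock. The groups were well apart, with a ratio of means of 2.49 and a log2 fold change of 1.27 (standard error 0.10, adjusted p = 0.000153 by limma). RRP9 (chr3:51933430-51941941), the protein specific to the U3 snoRNP, had 91.8, 87.4 and 92.4 TPM in PRMT1-OV, against 54.4, 62.6 and 60.7 TPM in Mock. It was higher in every PRMT1-OV library, with a log2 fold change of 0.61 (standard error 0.08, adjusted p = 0.000857 by limma). IMP3, IMP4 and MPHOSPH10, the partners within the MPP10 complex, had log2 fold changes of 0.38, 0.29 and 0.50, against 0.03, -0.07 and 0.15 after scaling, where none of the 3 passed. The IMP4 call was lost without PRMT1-OV replicate 1, PRMT1-OV replicate 3 or Mock replicate 1 (limma adjusted p = 0.0601, 0.071 and 0.075).

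Among 9 other processome factors, 8 were higher, WDR46 did not pass, and the median log2 fold change was 0.65, with 4 higher and 1 lower after scaling. The background was 40.3% of all tested genes higher on TPM, and 23.5% higher and 24.1% lower after scaling. UTP14A (chrX:129906121-129929761), whose yeast relative activates the helicase Dhr1, had 35.1, 41.4 and 41.3 TPM in PRMT1-OV, against 15.9, 15.5 and 17.0 TPM in Mock. No library overlapped, and the log2 fold change was 1.23 (standard error 0.10, adjusted p = 0.000138 by limma). Its near-copy UTP14C had 6.75, 9.74 and 8.02 TPM in PRMT1-OV, against 3.67, 3.79 and 2.10 TPM in Mock, so reads of the pair may be split between them. UTP23, a PIN-domain protein of 18S processing, had 9.09, 13.7 and 10.1 TPM in PRMT1-OV, against 4.32, 4.66 and 4.52 TPM in Mock. Every PRMT1-OV library was above Mock, with a log2 fold change of 1.10 (standard error 0.15, adjusted p = 0.00113 by limma). UTP23 shares 518 exonic bases with RAD21 on the other strand, which averaged 154 ± 23.4 TPM in PRMT1-OV and 104 ± 14.2 TPM in Mock, and its part in the result was not tested. NOP14 (chr4:2937933-2963385), the most abundant of these factors, had 117, 124 and 125 TPM in PRMT1-OV, against 94.1, 103 and 73.6 TPM in Mock. Mock replicate 3 was lowest and the groups did not overlap, with a log2 fold change of 0.44 (standard error 0.12, adjusted p = 0.018 by limma) on TPM and 0.09 after scaling (limma adjusted p = 0.479).

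The NOP14 call was lost without PRMT1-OV replicate 2 or 3 (limma adjusted p = 0.0525 and 0.0502). NOL6, a large scaffold protein, averaged 13.8 ± 0.56 TPM in PRMT1-OV and 6.47 ± 1.33 TPM in Mock, and NOL10 averaged 49.0 ± 6.52 TPM in PRMT1-OV and 30.7 ± 0.56 TPM in Mock (SD, n = 3 each). UTP20, the gene of the printed promoter with an E-box, averaged 8.40 ± 0.65 TPM in PRMT1-OV and 4.92 ± 1.57 TPM in Mock, and its call was lost without PRMT1-OV replicate 1 or 2 (limma adjusted p = 0.0544 and 0.0716). The GTPase BMS1 averaged 58.0 ± 5.11 TPM in PRMT1-OV and 43.2 ± 6.92 TPM in Mock, and its call was lost without PRMT1-OV replicate 1, PRMT1-OV replicate 2 or Mock replicate 1 (limma adjusted p = 0.0504, 0.0836 and 0.058). UTP11 averaged 40.7 ± 5.92 TPM in PRMT1-OV and 30.4 ± 1.43 TPM in Mock, and WDR46 averaged 59.4 ± 2.14 TPM in PRMT1-OV and 54.5 ± 3.29 TPM in Mock. After scaling UTP20, BMS1 and UTP11 did not pass, at log2 fold changes of 0.40, 0.07 and 0.05 (limma adjusted p = 0.0839, 0.53 and 0.609). Nor did they after GC correction, at 0.28, 0.0004 and -0.0096 (limma adjusted p = 0.202, 0.997 and 0.904).

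**Figure D2:**
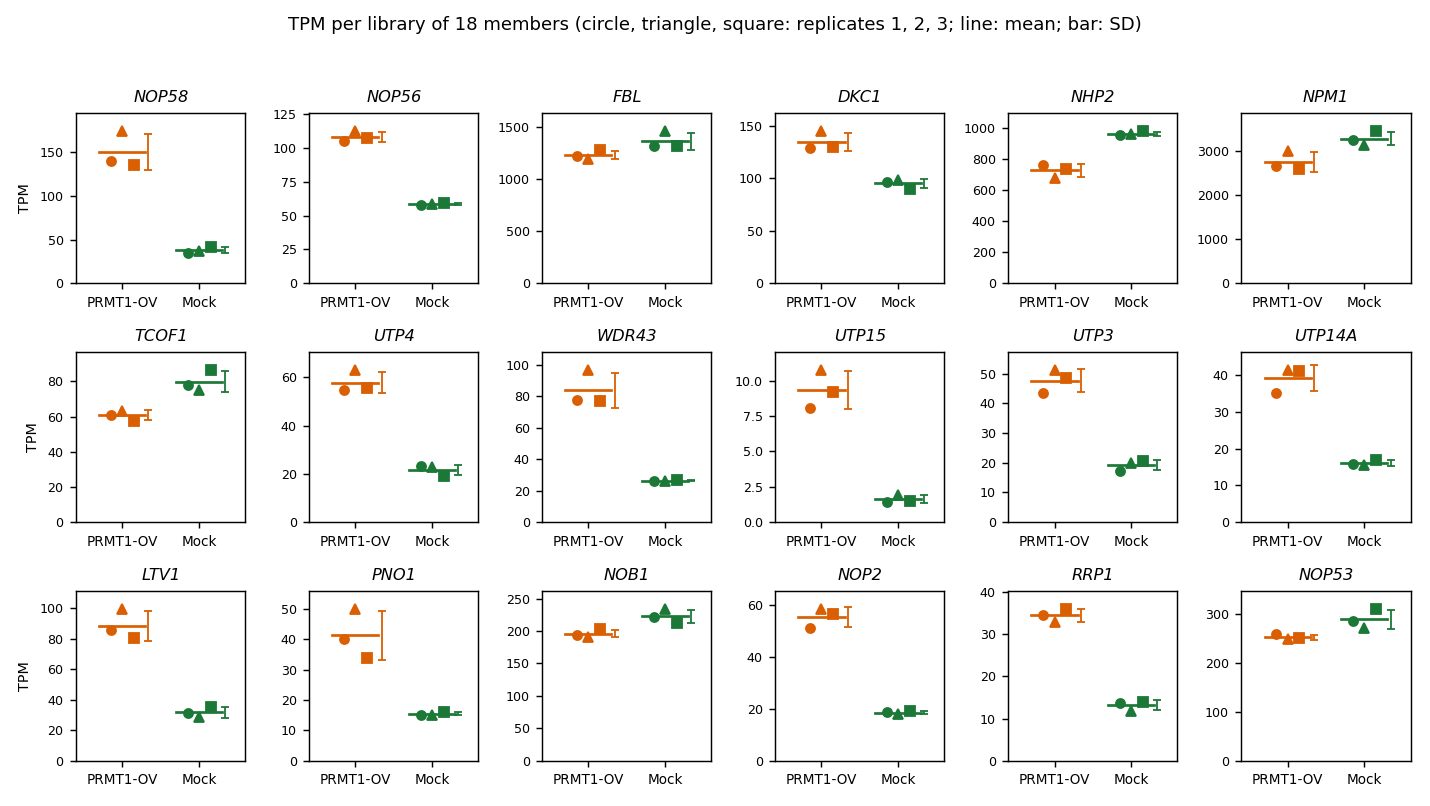
TPM per library of 18 members, with PRMT1-OV left of Mock in each panel, lines for the mean and bars for the SD (n = 3 each), each panel on its own axis from 0. In NOP58, UTP4, WDR43, UTP15, UTP3, UTP14A, LTV1, PNO1, NOP2 and RRP1 the PRMT1-OV libraries stand far above Mock, while in FBL, NHP2, NPM1, TCOF1, NOB1 and NOP53 they stand below.

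Late 40S factors, which carry the particle from the nucleolus to the cytoplasm, had 5 of 6 members higher and 1 lower, with a median log2 fold change of 0.61. LTV1 (chr6:143843344-143863812), the export-stage factor whose promoter with an ETS site is printed, had 85.9, 99.3 and 80.3 TPM in PRMT1-OV, against 31.3, 28.5 and 35.6 TPM in Mock. The ratio of means was 2.78, no values overlapped, and the log2 fold change was 1.45 (standard error 0.11, adjusted p = 0.000137 by limma). PNO1 (chr2:68157844-68176238), the RNA-binding partner of NOB1, had 40.1, 49.9 and 33.9 TPM in PRMT1-OV, against 15.1, 15.2 and 16.02 TPM in Mock. PRMT1-OV was spread and still above Mock throughout, with a log2 fold change of 1.35 (standard error 0.14, adjusted p = 0.000335 by limma). NOB1 (chr16:69741867-69754940), the endonuclease that makes the final cut of 18S rRNA, had 194, 191 and 203 TPM in PRMT1-OV, against 221, 234 and 213 TPM in Mock. The groups lay apart, PRMT1-OV below, with a log2 fold change of -0.18 (standard error 0.06, adjusted p = 0.0494 by limma).

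The NOB1 call was at the threshold and was lost without PRMT1-OV replicate 1, 2 or 3 (limma adjusted p = 0.145, 0.0907 and 0.0716) or without Mock replicate 1 or 2 (limma adjusted p = 0.126 and 0.162), while after scaling its log2 fold change was -0.54. With PRMT1 taken out the NOB1 log2 fold change was -0.07 (limma adjusted p = 0.383), and after quantile normalization it was -0.10 (limma adjusted p = 0.282). RRP12, which in yeast serves export of both subunits, averaged 22.1 ± 1.20 TPM in PRMT1-OV and 13.2 ± 0.69 TPM in Mock, and BYSL averaged 98.5 ± 6.28 TPM in PRMT1-OV and 68.6 ± 5.24 TPM in Mock (SD, n = 3 each). TSR1 averaged 71.4 ± 4.80 TPM in PRMT1-OV and 54.5 ± 8.22 TPM in Mock, and its call was lost without PRMT1-OV replicate 2 or 3 (limma adjusted p = 0.0858 and 0.066). It shares 1146 exonic bases with SRR on the other strand, which averaged 12.6 ± 1.66 TPM in PRMT1-OV and 8.10 ± 0.47 TPM in Mock, and its part was not tested. After scaling LTV1, PNO1 and RRP12 were higher and NOB1 was lower.

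Of 9 factors of the 60S particle, 7 were higher, NOP53 was lower and BOP1 did not pass, with a median log2 fold change of 0.56. The shares over all tested genes were 40.3% higher and 8.64% lower. NOP2 (chr12:6556863-6568691), a cytosine methyltransferase of 28S rRNA, had 51.3, 58.5 and 56.8 TPM in PRMT1-OV, against 18.9, 17.9 and 19.0 TPM in Mock. It had the smallest p of all members, with a ratio of means of 2.98, no overlap and a log2 fold change of 1.52 (standard error 0.08, adjusted p = 5.73e-05 by limma). RRP1 (chr21:43789513-43805293) had 34.6, 32.8 and 35.9 TPM in PRMT1-OV, against 13.6, 11.9 and 14.0 TPM in Mock. Its groups lay far apart, with a log2 fold change of 1.33 (standard error 0.09, adjusted p = 0.000112 by limma), and its paralog RRP1B averaged 75.2 ± 7.99 TPM in PRMT1-OV and 44.3 ± 5.64 TPM in Mock (SD, n = 3 each). NOP53 (chr19:47745522-47757058), which in yeast brings the RNA exosome to the particle, had 259, 249.8 and 251 TPM in PRMT1-OV, against 286, 273 and 311 TPM in Mock. The groups did not overlap, PRMT1-OV below, with a log2 fold change of -0.19 (standard error 0.07, adjusted p = 0.0491 by limma). That call was lost without PRMT1-OV replicate 1, 2 or 3 (limma adjusted p = 0.1, 0.0905 and 0.117) or without Mock replicate 1 or 3 (limma adjusted p = 0.111 and 0.0719). With PRMT1 taken out the NOP53 log2 fold change was -0.08 (limma adjusted p = 0.337), and after quantile normalization it was -0.08 (limma adjusted p = 0.393).

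The PeBoW complex of PES1, BOP1 and WDR12, needed for 28S and 5.8S maturation, had 2 members called higher on TPM and 1 that did not pass. WDR12 averaged 16.5 ± 1.87 TPM in PRMT1-OV and 10.8 ± 0.41 TPM in Mock, PES1 averaged 162 ± 5.30 TPM in PRMT1-OV and 134 ± 4.24 TPM in Mock, and BOP1 averaged 175 ± 8.94 TPM in PRMT1-OV and 187 ± 3.06 TPM in Mock (SD, n = 3 each). After scaling neither WDR12 nor PES1 passed, PES1 turned to a log2 fold change of -0.08, and BOP1 was lower at -0.45 (limma adjusted p = 0.0083). RRS1, which in yeast helps bring in the 5S RNP, averaged 46.6 ± 2.49 TPM in PRMT1-OV and 25.3 ± 3.47 TPM in Mock. NOP16 averaged 28.3 ± 0.69 TPM in PRMT1-OV and 21.4 ± 1.81 TPM in Mock, and it shares 227 exonic bases with HIGD2A on the other strand, which averaged 403 ± 11.8 TPM in PRMT1-OV and 572 ± 85.7 TPM in Mock. After scaling NOP2, RRP1, RRP1B and RRS1 were higher, and BOP1 and NOP53 were lower.

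Transcripts of proteins that sit in the same particle, or that were placed in the same step as NPM1 and NCL were, stood in different ratios in the 2 groups. A ratio of TPM taken within a library does not change when the whole library is multiplied by a single factor. Quantile normalization and GC correction would change it. The 13 ratios were taken on TPM and were formed after the values had been seen. They are given with no test, and with 3 libraries against 3 an exact permutation test cannot go below 0.1. NOP58 over FBL was 0.114, 0.145 and 0.106 in PRMT1-OV, against 0.0264, 0.0253 and 0.0317 in Mock, a 4.37-fold difference. NOP58 over its direct partner NOP56 was 1.33, 1.55 and 1.27 in PRMT1-OV, against 0.597, 0.635 and 0.704 in Mock, so that NOP56 was the more abundant transcript in Mock and NOP58 in PRMT1-OV. DKC1 over NHP2 averaged 0.185 ± 0.0237 in PRMT1-OV and 0.0984 ± 0.00566 in Mock, and GAR1 over NHP2 averaged 0.0936 ± 0.00716 in PRMT1-OV and 0.0494 ± 0.00607 in Mock (SD, n = 3 each). PNO1 over NOB1 averaged 0.212 ± 0.0472 in PRMT1-OV and 0.0696 ± 0.00519 in Mock, and LTV1 over NOB1 averaged 0.453 ± 0.0622 in PRMT1-OV and 0.144 ± 0.0227 in Mock. UTP15 over HEATR1 averaged 0.172 ± 0.0117 in PRMT1-OV and 0.0416 ± 0.00739 in Mock. The most even pair was NPM1 over NCL, at 4.68 ± 0.0315 in PRMT1-OV and 5.26 ± 0.202 in Mock. The remaining ratios differed 2.04-fold for NOP56 over FBL, 1.93-fold for UTP4 over HEATR1 and 1.63-fold for WDR12 over BOP1. PES1 over BOP1 differed 1.29-fold and NOP10 over NHP2 1.25-fold, all higher in PRMT1-OV. In none of the 13 ratios did the groups overlap. As the pairs were chosen with the values known and other gene pairs were not compared, that count says nothing about partners in general.

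**Figure D3:**
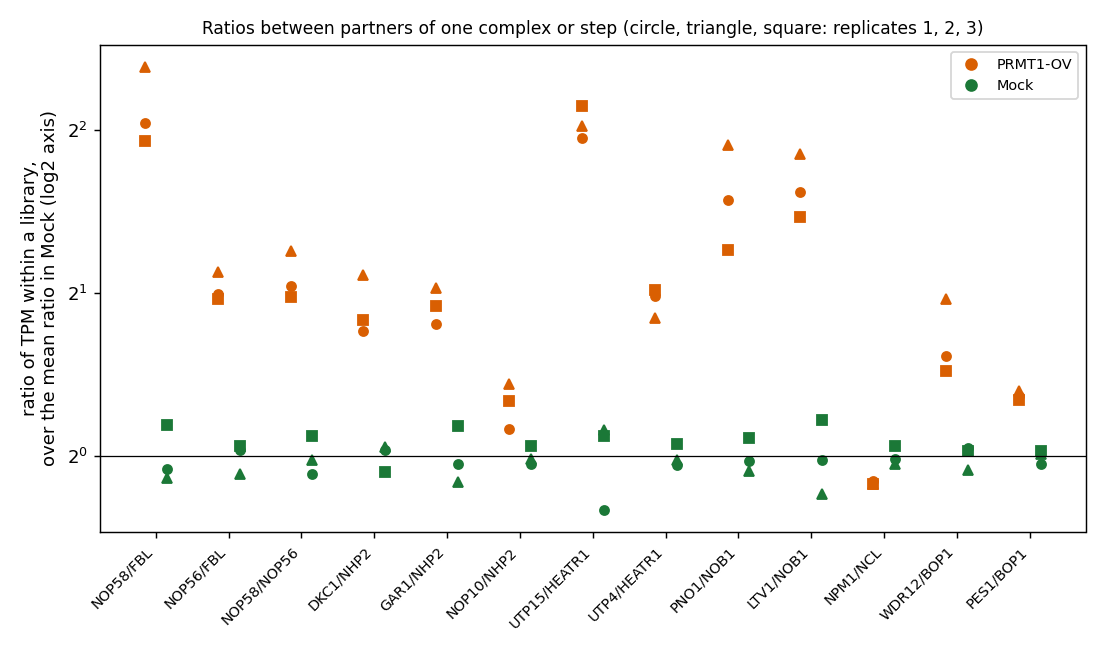
Ratio of TPM between members of the same particle or step within each library, divided by the mean ratio in Mock, on a log2 axis, with PRMT1-OV left of Mock for each pair. NOP58/FBL and UTP15/HEATR1 stand about 4-fold apart between the groups and NPM1/NCL lies slightly below 1 in PRMT1-OV.

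The members' fold changes varied with their level and with the GC content of their transcripts. Of the 31 members with a mean of 20 to 100 TPM, 28 were higher, with a median log2 fold change of 0.65, where 38.8% of all 3825 tested genes of that range were higher, with a median of 0.19. Of the 8 members under 20 TPM, 7 were higher, with a median of 0.83, where 44.6% of the 10132 tested genes were higher, with a median of 0.41. Of the 14 members at 100 TPM or more, 4 were higher and 5 lower, with a median of -0.09. Of the 1384 tested genes of that range, 13.7% were higher and 491 genes were lower, with a median of -0.13, so lower calls were common there. By GC content, 19 of 20 members under 45% were higher, 11 of 16 from 45 to 55% and 9 of 17 at 55% or more, with medians of 0.80, 0.39 and 0.27. Of the tested genes of those GC ranges, 49.0%, 40.1% and 30.7% were higher, with medians of 0.44, 0.29 and 0.13, so the order by GC content was shared with the background. Across genes, which are not independent replicates and share libraries and depth, Spearman's rho of the log2 fold change with GC content was -0.47 over 53 members and -0.24 over 15276 tested genes, and with mean TPM it was -0.60 over the members and -0.25 over all 15341 tested genes. After correction of each library for GC content, 24 members were higher and 11 lower, against 23.1% and 26.1% of the tested genes. Under that correction 12 members lost the call with the same sign, 4 gained one with the same sign and 4 changed sign with a call before or after. Spearman's rho over the members was then -0.30 with GC content and -0.56 with mean TPM, against -0.02 and -0.25 over 15276 tested genes. Beyond that correction, the part of GC content in single results was not tested.

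**Figure D4:**
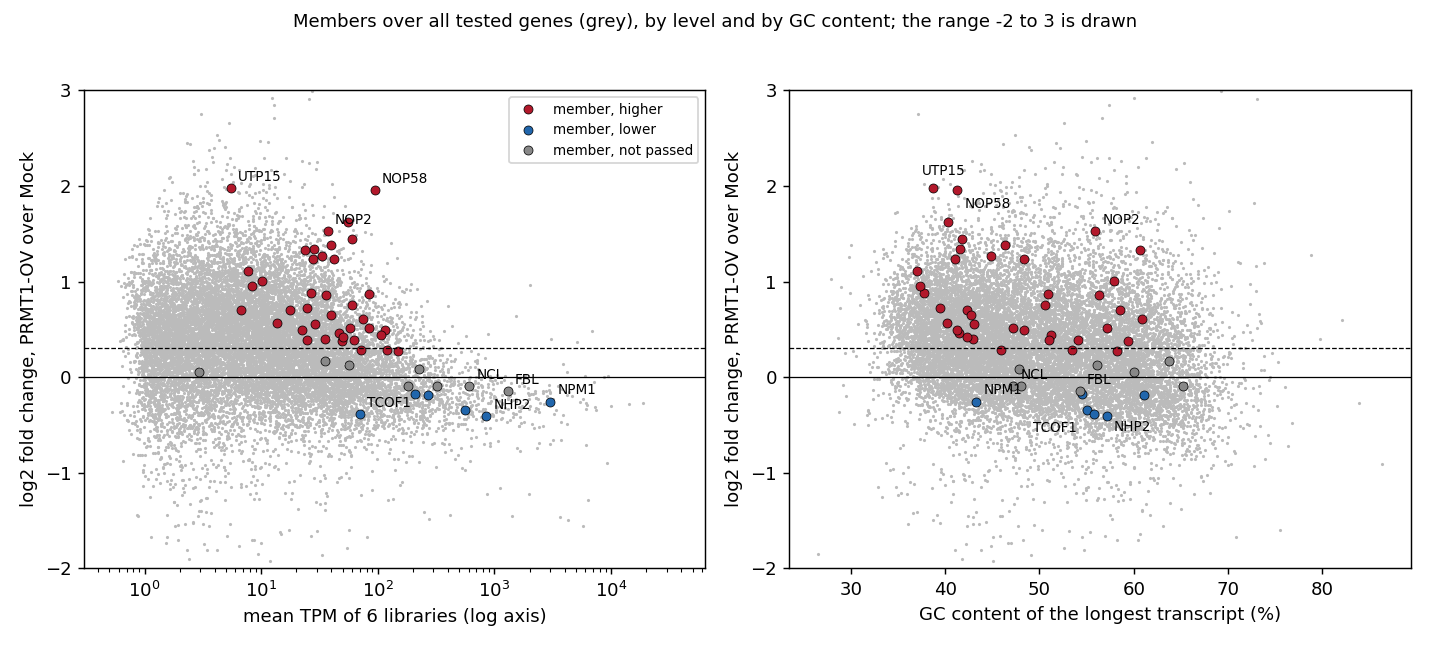
Log2 fold change of TPM + 1 in PRMT1-OV over Mock against the mean TPM of 6 libraries (left, log axis) and the GC content of the longest transcript in percent (right), with all tested genes in grey and the 53 members coloured by call. The dashed line is the median of all tested genes at 0.30. Members at high levels, such as NPM1 and FBL, lie near or below 0, and the largest rises lie at lower levels.

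PRMT1-OV replicate 2 gave the highest PRMT1-OV value of 37 of 53 members, and Mock replicate 3 gave the lowest Mock value of 24 members and the highest of 20. Without both of these libraries, 39 members were higher and 7 lower, against 37.2% and 13.8% of all tested genes, and the UTP-A median was 0.90 above that of all genes, in place of 1.00.

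Among 85 further genes of the pathway that are not members, 59 were higher and 3 lower, with a median log2 fold change of 0.51, where 40.3% of all tested genes were higher and 8.64% lower. After scaling 33 were higher and 14 lower, where 23.5% of all tested genes were higher and 24.1% lower. These shares are also the background for each list, and the lists were chosen with earlier results of these data known. Of 11 snoRNP assembly factors 7 were higher, among them NUFIP1, a platform of box C/D assembly, at 15.0 ± 1.14 TPM in PRMT1-OV and 4.90 ± 0.31 TPM in Mock (SD, n = 3 each). SHQ1, a chaperone of dyskerin, averaged 11.5 ± 1.54 TPM in PRMT1-OV and 4.86 ± 0.54 TPM in Mock. Of 7 RNA polymerase I initiation genes 6 were higher. They included RRN3, the factor that readies the polymerase for initiation, at 26.1, 33.8 and 23.4 TPM in PRMT1-OV, against 12.0, 12.0 and 11.7 TPM in Mock, and TAF1A, a subunit of the promoter selectivity factor, at 21.0 ± 2.73 TPM in PRMT1-OV and 8.56 ± 1.73 TPM in Mock. RRN3 had a log2 fold change of 1.14 (standard error 0.14, adjusted p = 0.000603 by limma) and stayed at 0.80 after scaling.

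Of 29 other small subunit factors, 18 were higher and 3 lower. NGDN averaged 25.2 ± 0.72 TPM in PRMT1-OV and 9.11 ± 0.13 TPM in Mock, and AATF, its partner in a nucleolar complex, averaged 68.4 ± 1.75 TPM in PRMT1-OV and 39.9 ± 1.78 TPM in Mock (SD, n = 3 each). The lower ones with the smallest p were TRMT112, the shared activator of several RNA methyltransferases, at 496 ± 32.7 TPM in PRMT1-OV and 630.3 ± 59.7 TPM in Mock, and TSR3, which modifies 18S rRNA, at 124 ± 4.70 TPM in PRMT1-OV and 148 ± 7.20 TPM in Mock. Of 38 other large subunit factors 28 were higher and none lower in the limma fit on TPM, against 15 higher and 4 lower after scaling. CEBPZ, the relative of yeast Noc1, averaged 59.2 ± 10.1 TPM in PRMT1-OV and 19.5 ± 0.38 TPM in Mock, and KRI1 averaged 47.0 ± 0.84 TPM in PRMT1-OV and 21.7 ± 1.31 TPM in Mock.

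Within 8 host members lie 21 snoRNA genes, of which 9 share bases with an annotated exon of the host and 12 do not. Libraries were polyA-selected, and no snoRNA among them had over 5 reads in a library. Of the 8 at 0 in all 6 libraries, 7 were among those that share bases with a host exon. Their summed level was 19.8 to 24.0 TPM in PRMT1-OV and 17.8 to 22.3 TPM in Mock, and no comparison of snoRNAs was made at this depth.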

How the data were processed

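Libraries were polyA-selected, fragmented and randomly primed, as the labels' protocols state. TPM values per Ensembl gene were deposited by the authors, and each column adds up to 1000000. Upstream tools were STAR 2.5.2b, Trimmomatic 0.36, Subread 1.5.2 and featureCounts on GRCh38, per the submitters' processing notes. Not given in the sources used here were the annotation, the strand setting and the calculation of TPM. Symbols came from a table of gene names, and positions, lengths and GC content from GENCODE 29. TPM times exonic length fell on whole multiples of a step in each library for 95.5 to 95.8% of low values (within 0.05 read, where chance gives 10%), from which reads were estimated.

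Genes that reached 1 TPM in 3 or more of the 6 libraries were compared on log2(TPM + 1) by limma 3.58.1 in R 4.3.3 with a mean-variance trend, Benjamini-Hochberg adjustment and a threshold of 0.05, and limma was tested on simulated data. For each step, the text names the member with the highest mean TPM, the 2 with the smallest p and any called against the step's direction, and likewise up to 2 genes per direction of each further list by p. Members, lists and steps were chosen with earlier results of these data known. Same-numbered libraries did not deviate together (r = -0.0333, 0.0588 and 0.0201), so numbers were not used as pairs. Libraries of a group differed by more than counting noise (chi-square per degree of freedom 2.76 to 25.5), so none was taken for a duplicate. Alternatives were other pseudocounts (0.1 and 5 TPM), filters (none and 5 TPM), scalings (median-of-ratios, quantile, PRMT1 taken out), GC correction, no variance trend, a replicate block and left-out libraries. Summaries were computed in Python 3.11.15. One marker of the cell type check is not reported here.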

Additional observations from a re-analysis of the deposited data

How the results depend on the processing

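Over 17 alternatives, 900 values of single members were computed. Of these, 788 kept the side of the threshold, 90 lost the call with the same sign and 12 gained one with the same sign. The other 10 changed sign with a call before or after, all 10 under another scaling or GC correction. Sign changes with no call in either fit are among the 788, such as FBL (0.14), NCL (0.15) and NOP10 (0.033) after quantile normalization. Others were TBL3 (-0.18) and PWP2 (-0.21) after median-of-ratios scaling. PWP2 was not tested at the 5 TPM filter. Of all tested genes, the higher count of 6190 became 3605 after median-of-ratios scaling, 3109 after quantile normalization and 3531 after GC correction, and 5082 to 5634 when 1 library was left out. The lower count of 1325 became 3692, 2979 and 3986 under those 3 alternatives, 880 with PRMT1 taken out, 2115 without Mock replicate 3 and PRMT1-OV replicate 2, and 935 to 1520 when 1 library was left out. Members higher were 21 after median-of-ratios scaling, 24 after GC correction and 33 to 39 when 1 library was left out. Members lower were 12 after median-of-ratios scaling, 11 after GC correction, 1 after quantile normalization, 3 with PRMT1 taken out, with no filter or with no variance trend, and 3 to 5 when 1 library was left out. Among the 10 sign changes with a call were NPM1 after quantile normalization (0.0059) and NOLC1 after median-of-ratios scaling (-0.27) and GC correction (-0.27). The others were UTP18 (-0.072 and -0.086) and IMP4 (-0.066 and -8.67e-05) under the same pair, and UTP11 after GC correction (-0.0096). WDR46 (-0.23) and PES1 (-0.082) also changed after median-of-ratios scaling. The cause was not tested. With the replicate number as a block, 6275 genes were higher and 1314 lower, and 39 members were higher and 4 lower, the NOB1 and NOP53 calls being lost. Both of these were lost under 11 of the 17 alternatives. Depth limits the low members, the fewest reads of a member in a library being 55.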
